A study of Mus musculus with 2 samples.

Results

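Cytosolic ribosomal protein genes encode the protein part of the ribosomes that translate nuclear messages. They were taken from the RefSeq gene table of the mm10 assembly as all protein-coding genes with a symbol of Rpl or Rps followed by a digit, plus *Rplp0*, *Rplp1*, *Rplp2* and *Rpsa*, without the Rps6k kinases. This gave 91 genes out of 21900 protein-coding genes, 56 named for the large (60S) and 35 for the small (40S) subunit. The deposited list held 51356 peaks, of which 24 had their summit, the base of highest coverage, inside or within 5 kb of 20 of these genes.

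The peaks come from chromatin immunoprecipitation followed by sequencing (ChIP-seq) in mouse myoblasts of the established C2C12 line. The cells were a single clone with a doxycycline-inducible, codon-altered transgene, MMH, in which the homeodomains of mouse Dux are followed by the carboxy-terminal part of human DUX4. Both groups carried MMH and had 2 ug/ml doxycycline for 18 h. They differed in the antibody, which was the DUX4 antisera MO488 and MO489 in 1 library and anti-HA in the other, a control that the series text instead calls a GFP antibody. A peak list holds no expression values, so the cell type and the induction of MMH were not checked. After duplicate removal 26253175 antisera fragments and 23412256 control fragments were used for peak calling. With 1 library per group there is no replicate spread, and no difference was tested. Intervals of shares are binomial and treat genes as independent, and those of single peaks cover the counting of fragments. That of the median best fold reflects the spread between genes. No interval covers variation between libraries.

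Dux and DUX4 are transcription factors of the early embryo that bind DNA through a pair of homeodomains. Ribosomal protein genes are short, transcribed strongly in nearly every cell, and rely on promoters with start sites in a run of C and T bases. That run gives their messages the 5 prime terminal oligopyrimidine (TOP) tract through which mTOR signalling sets their translation. Many of these genes carry small nucleolar RNAs (snoRNAs) in their introns and have left processed pseudogenes across the genome. The comparison asked where the DNA-binding part of Dux lay relative to these housekeeping genes.

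A summit inside or within 5 kb was found for 20 of 91 ribosomal protein genes (22.0%, exact binomial 95% interval 14.0 to 31.9%). Over all protein-coding genes the share was 43.2% (9457 of 21900), where a gene counts as having a peak if the authors' caller placed a summit there at a q-value of 0.01. Gene span differed greatly between these groups, with a median of 3175 bp for ribosomal protein genes (374 to 16779 bp) against 17146 bp for all coding genes. Among genes of up to 5 kb, 15 of 75 ribosomal protein genes (interval 11.6 to 30.8%) and 18.5% of all coding genes (934 of 5047) had a peak. Among genes of 5 to 20 kb it was 5 of 16 (31.2%, 11.0 to 58.7%) against 29.8% (2033 of 6815). None of the 91 was longer than 20 kb, a class in which 64.7% of coding genes had a peak. Within each class of span the background share thus lay inside the interval of the ribosomal protein genes.

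**Figure D1:**
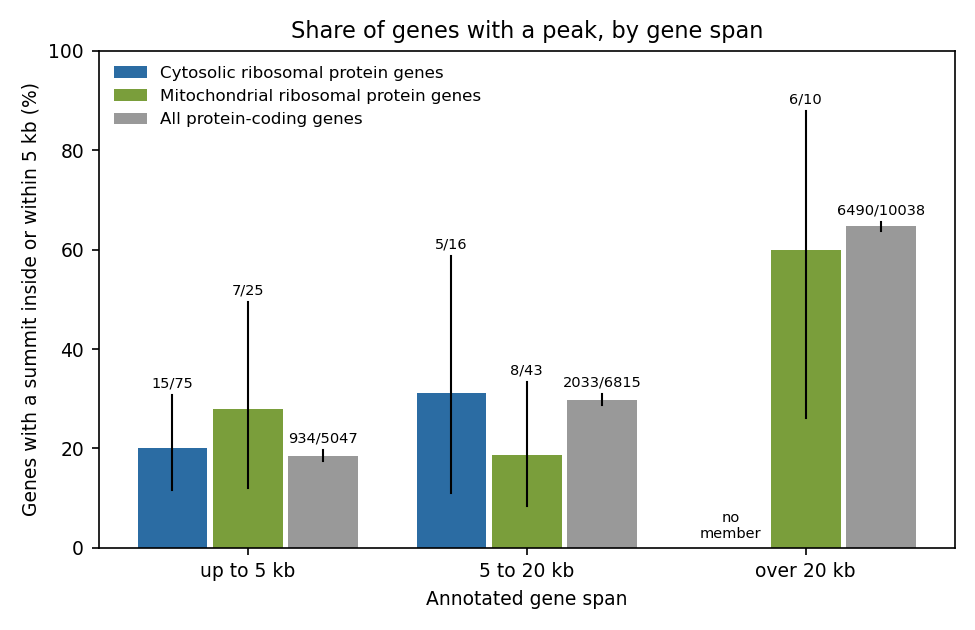
Share of genes with a summit inside or within 5 kb (y axis, percent) in 3 classes of annotated gene span (x axis), for cytosolic ribosomal protein genes, mitochondrial ribosomal protein genes and all protein-coding genes. Vertical lines are exact binomial 95% intervals and the labels give genes with a peak over genes in the class; at up to 5 kb 15 of 75 cytosolic genes have a peak, against 18.5% of all coding genes.

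The large subunit had a peak at 13 of 56 genes (23.2%, 13.0 to 36.4%) and the small subunit at 7 of 35 (interval 8.44 to 36.9%), which holds the share of the large subunit. The symbol rule also took in 14 genes that are paralogues, retrogenes or no subunit at all, 9 of them on a list of such genes and 5 recognised from the gene table. They include *Rpl3l*, the striated-muscle form of *Rpl3*, *Rpl10l* and *Rpl39l*, forms expressed in the testis, *Rpl22l1*, *Rpl7l1*, *Rpl36al*, *Rps27l*, *Rps27rt* and *Rps19bp1*, which encodes a protein that binds Rps19. None of the 14 had a summit within 5 kb, and the interval of 0.0 to 23.2% holds the 18.5% of coding genes of up to 5 kb. The nearest lay 6349 bp from *Rpl36al*, 8210 bp from *Rpl10l* and 25318 bp from *Rpl3l*. Without these 14 the share was 20 of 77 (26.0%, 16.6 to 37.2%).

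Groups with known roles were counted apart. The P stalk, which draws elongation factors to the ribosome, had a peak at *Rplp0* and *Rplp2*, while the nearest summit to *Rplp1* lay 94220 bp away. *Rpl5*, *Rpl11* and *Rpl23*, whose products can bind and restrain Mdm2 when ribosome assembly fails, had none, with nearest summits at 13541, 26843 and 11822 bp. Of 20 genes whose human counterparts are mutated in Diamond-Blackfan anaemia, 4 had a peak (interval 5.73 to 43.7%), and these were *Rps20*, *Rps24*, *Rpl15* and *Rpl31*. That interval holds the 22.0% of all 91 genes and the 18.5% of coding genes of up to 5 kb. With 3 genes each, the intervals of the stalk (9.43 to 99.2%) and of the Mdm2 binders (0.0 to 70.8%) also hold both shares.

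Median enrichment at the ribosomal protein genes was close to that of the whole list, and 1 peak of the 24 was among its high values. Fold enrichment, the authors' ratio of fragments at the summit to the local background, had a median of 8.18 over the 24 peaks, against 8.02 over all 51356, and 12 of the 24 lay above that overall median. The best peak per gene had a median of 8.88-fold (4.39 to 36.1), against 11.6 for all coding genes with a peak and 8.98 for those of up to 20 kb. Of the 24 peaks 23 stayed under 15-fold, a value that 1 of them and 21.6% of all peaks reached. The 15-fold mark was not part of the plan, and the share over all peaks is not matched for gene span. Only the *Rpl39* peak belonged to the strongest 10% of the list by −log10 p. Peak widths were 303 to 758 bp, with a median of 433 bp against 430 bp for the whole list. The local background stood at the lowest value of the list, 4.01 fragments, in 22 of the 24 peaks and in 79.4% of all peaks. It was 4.49 at the stronger *Rps20* peak and 5.05 at the stronger *Rpl3* peak.

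**Figure D2:**
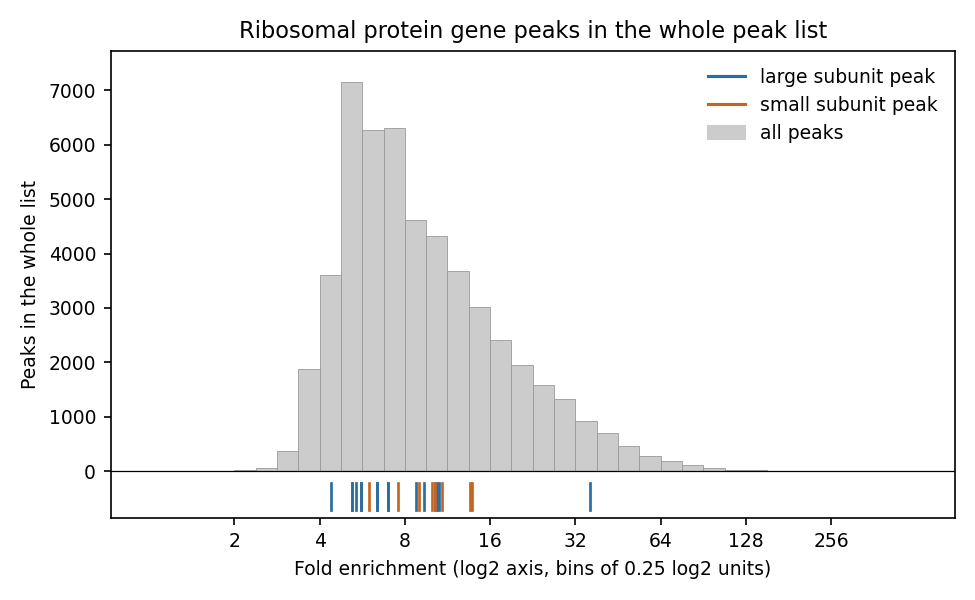
Histogram of fold enrichment for all 51356 peaks (x axis on a log2 scale, y axis number of peaks), with a tick under the axis for each of the 24 peaks at ribosomal protein genes, coloured by subunit. All ticks but that of *Rpl39* at 36.1-fold lie under 15-fold.

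Among the genes with a listed promoter, a summit fell in the promoter window of 1 gene only, *Rps24*, which encodes a small-subunit protein. The RefSeq promoter table (GRCm38.p6, the assembly of mm10) lists 300 bases for each annotated start, 250 before and 50 after, and held 82 windows for 70 of the 91 genes. Both windows that held a summit, 2 of 82 (2.44%), belonged to *Rps24*, against 379 of 32851 windows in the whole table (1.15%). The *Rps24* peak, chr14:24490386-24490821, had 44 fragments over a background of 4.01, or 8.98-fold (6.58 to 12.0, a 95% Poisson interval of the fragment count over a fixed background). Its summit lay 70 bp before the first annotated start and 145 bp before the second. The first window, chr14:24490428-24490727 on the plus strand, is shown because it holds that summit, with the 11 bases centred on it in capitals:
Rps24 promoter: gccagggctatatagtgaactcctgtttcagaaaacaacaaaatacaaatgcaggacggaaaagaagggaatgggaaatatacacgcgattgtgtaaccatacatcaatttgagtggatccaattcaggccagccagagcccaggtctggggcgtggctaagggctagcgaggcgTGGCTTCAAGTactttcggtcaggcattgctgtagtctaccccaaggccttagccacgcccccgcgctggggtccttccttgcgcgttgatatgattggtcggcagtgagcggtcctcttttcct

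The promoter windows were searched on both strands for TNATNNAATCA, which covers the paired homeodomain sites of Dux (TGAT as first part) and of DUX4 (TAAT as first part). Neither *Rps24* window held a match, and among the 82 windows the only one that did was that of *Rpl32l* (1.22%), a gene whose nearest summit lay 9948 bp away. Of all 32851 windows 319 matched (0.971%), and 12.7% of those that held a summit (48 of 379). The Dux form alone, TGATNNAATCA, was found in 0 of 82 windows of these genes, 0.207% of all and 6.60% of those with a summit. The DUX4 form, TAATNNAATCA, was likewise found in 0 of 82, 0.350% of all and 3.17% of those with a summit. The *Rpl32l* match was therefore of neither form, since the search pattern allows any base in its second position. The absence of these letters from a window of 300 bases says nothing of factor binding at the gene. Median GC content was 57.8% in the 82 windows and 52.7% in the whole table.

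*Rps21* and *Rpl28* were the other genes with a summit within 1000 bp of a listed start, in both cases upstream of the promoter window. The *Rps21* peak, chr2:180256370-180256810, reached 67 fragments and 13.6-fold (10.6 to 17.2), with its summit 797 bp before the gene. The *Rpl28* peak, chr7:4791958-4792485, reached 50 fragments and 10.2-fold (7.60 to 13.3), with its summit 746 bp before the gene. The 31 bases around the first listed start of each gene, the start being the 16th base, show the C and T run across it in capitals:
Rps24: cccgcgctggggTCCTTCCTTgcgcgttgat
Rps21: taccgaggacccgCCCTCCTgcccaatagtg
Rpl28: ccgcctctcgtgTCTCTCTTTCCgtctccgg

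These stretches lie at chr14:24490663-24490693, chr2:180257364-180257394 and chr7:4792950-4792980, all on the plus strand, and hold runs of 9, 7 and 11 bases. A C followed by at least 4 further C or T bases began exactly at the listed start in 15 of the 82 windows of ribosomal protein genes (18.3%) and in 2.51% of all windows. Allowing 5 bases either side of the start, it was present in 34 (41.5%) against 18.3% of all windows. In genes with and without a peak the exact start was met in 4 of 17 windows (23.5%) and 11 of 65 (16.9%), and the wider count in 7 (41.2%) and 27 (41.5%).

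Within 5 kb the strongest peak of the group lay near *Rpl39*, whose product lines the exit tunnel of the large subunit. At chrX:37088766-37089399 it held 180 fragments over a background of 4.01, or 36.1-fold (31.0 to 41.7), and 4.06% of all peaks were higher. Its interval did not overlap that of any other peak at these genes. A pileup of 100 fragments or more was reached at 1 of 91 ribosomal protein genes, against 12.4% of all coding genes, 3.43% of those up to 5 kb long and 5.56% of those of 5 to 20 kb. The summit lay 3924 bp upstream of *Rpl39*, but the span of *Upf3b*, a factor of nonsense-mediated mRNA decay, was nearer. That gene spans 37091678 to 37110471, with the summit 2532 bp outside it on its 3 prime side. The nearest listed start of *Upf3b* was 21176 bp from the summit, farther than the listed start of *Rpl39* at 3924 bp. The order depends on the distance allowed: at 10 kb the best peak of *Rps20* rose from 10.0-fold to 47.1-fold, above *Rpl39*, and that of *Rpl28* from 10.2-fold to 34.1-fold.

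The other large-subunit genes had best peaks of 4.39-fold to 10.6-fold. At *Rplp2*, an acidic protein of the stalk, the peak chr7:141451102-141451531 had 52 fragments and 10.6-fold enrichment (7.95 to 13.8), with its summit inside the gene 39 bp from its 3 prime end. *Rpl4*, whose product helps to form the narrowest part of the exit tunnel, had 10.4-fold (7.77 to 13.6) 3982 bp downstream at chr9:64182355-64182757. That summit fell inside the neighbouring gene *Snapc5*. *Rpl41*, which encodes a very short peptide of the large subunit, had 9.37-fold (6.92 to 12.4) 3667 bp upstream at chr10:128552627-128553079. Each of these intervals overlaps the others.

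Inside *Rpl21* a peak of 43 fragments and 8.78-fold (6.41 to 11.8) lay at chr5:146834330-146834804. *Rpl3*, whose product reaches towards the peptidyl transferase centre, had a pair of peaks on chromosome 15 with summits 3533 bp apart. The first, chr15:80079791-80080152, lay inside the gene at 6.95-fold (5.03 to 9.36). The second, chr15:80083372-80083751, had its summit 92 bp beyond the gene end of higher coordinate at 5.39-fold (3.59 to 7.80). *Rpl3* was among the genes with no entry in the promoter table, so which of its ends is the start was not used here. *Rpl24*, which takes part in a bridge between the subunits, had a pair of equal peaks of 31 fragments and 6.38-fold (4.40 to 8.98), with summits 877 and 1867 bp downstream. Both summits fell inside *Zbtb11*, the second of them 500 bp before a listed start of that gene.

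The remaining large-subunit genes had best peaks of 4.39-fold to 6.98-fold. *Rpl15* had 6.98-fold (4.90 to 9.68) 3776 bp upstream, within the neighbouring *Nkiras1*. *Rpl37a*, 1607 bp downstream, and *Rplp0*, 2364 bp upstream, each had 27 fragments and 5.59-fold (3.75 to 8.04), and *Pxn* was nearer to the *Rplp0* summit. *Rpl23a*, whose product lies beside the tunnel exit, had 5.19-fold (3.43 to 7.56) 3801 bp outside the gene, 1042 bp from *Rab34*. *Rpl31* had the lowest value, 21 fragments and 4.39-fold (2.79 to 6.60), inside the gene at chr1:39369114-39369490, and 91.6% of all peaks were higher.

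Among small-subunit genes *Rps12* came first, with 68 fragments and 13.8-fold (10.7 to 17.4) at chr10:23782835-23783592, 2067 bp downstream of the gene. This peak was the widest of the 24, and its interval largely coincides with that of *Rps21*. *Rps27a*, which encodes a fusion of ubiquitin and a small-subunit protein, had a pair of peaks outside the gene. They lay at chr11:29548932-29549459 with 10.8-fold (8.12 to 14.0) and at chr11:29550884-29551331 with 10.2-fold (7.60 to 13.3), and both summits fell inside *Clhc1*. *Rps20* had a pair inside the gene, at chr4:3832077-3832734 with 10.0-fold (7.58 to 13.0) and at chr4:3833651-3834277 with 5.19-fold (3.43 to 7.56). The nearest other coding gene, *Mos*, lay at least 36560 bp from either summit. No ribosomal protein gene but *Rps20* held 2 summits inside its span.

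*Rps15*, whose product has a tail near the decoding site, had 37 fragments and 7.58-fold (5.40 to 10.4) 1163 bp downstream, and the summit lay 679 bp before *Apc2*. *Rps3*, a protein of the messenger entry channel, had 29 fragments and 5.98-fold (4.07 to 8.51) inside the gene at chr7:99479472-99479778. Its summit lay within *Snord15b*, a snoRNA gene of the *Rps3* span, and was the only one of the 24 in a snoRNA gene. Of the 91 genes 30 held at least 1 annotated snoRNA, and 9 of these 30 had a peak (interval 14.7 to 49.4%), a range that holds the share of the other 61 (11 genes, 18.0%).

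**Figure D3:**
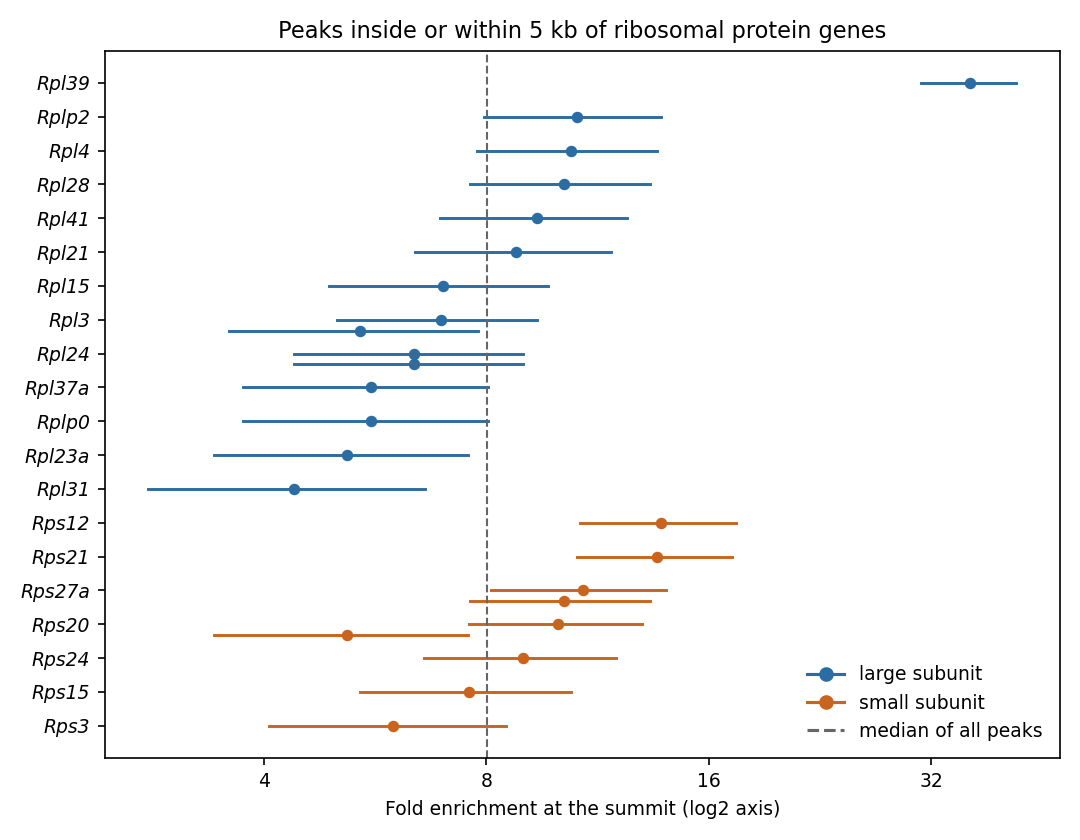
Fold enrichment at the summit (x axis, log2 scale) for each of the 24 peaks by gene, blue for the large and orange for the small subunit. Lines are 95% Poisson intervals of the pileup with the background held fixed, and the dashed line is the median of all peaks, 8.02; the interval of *Rpl39* stands clear of the rest.

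Summits showed no common position along the genes. Of the 24, 7 lay inside 6 genes, 7 upstream, 6 downstream, and 4 outside 3 genes whose strand is not listed. A summit inside the gene was found for 6 of 91 genes (6.59%), against 32.3% of all coding genes, 3.19% of those of up to 5 kb (4 of 75 ribosomal protein genes, 5.33%) and 16.0% of those of 5 to 20 kb (2 of 16, 12.5%). Within 1 kb it was 10 of 91 (11.0%), against 35.0% of all coding genes. By class of span that was 6 of 75 against 7.35%, and 4 of 16 against 19.7%. For 10 of the 17 summits outside, the span of another coding gene was nearer than that of the ribosomal protein gene. The gene spans carry no exons, so whether inner summits were exonic or intronic was not analysed here.

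**Figure D4:**
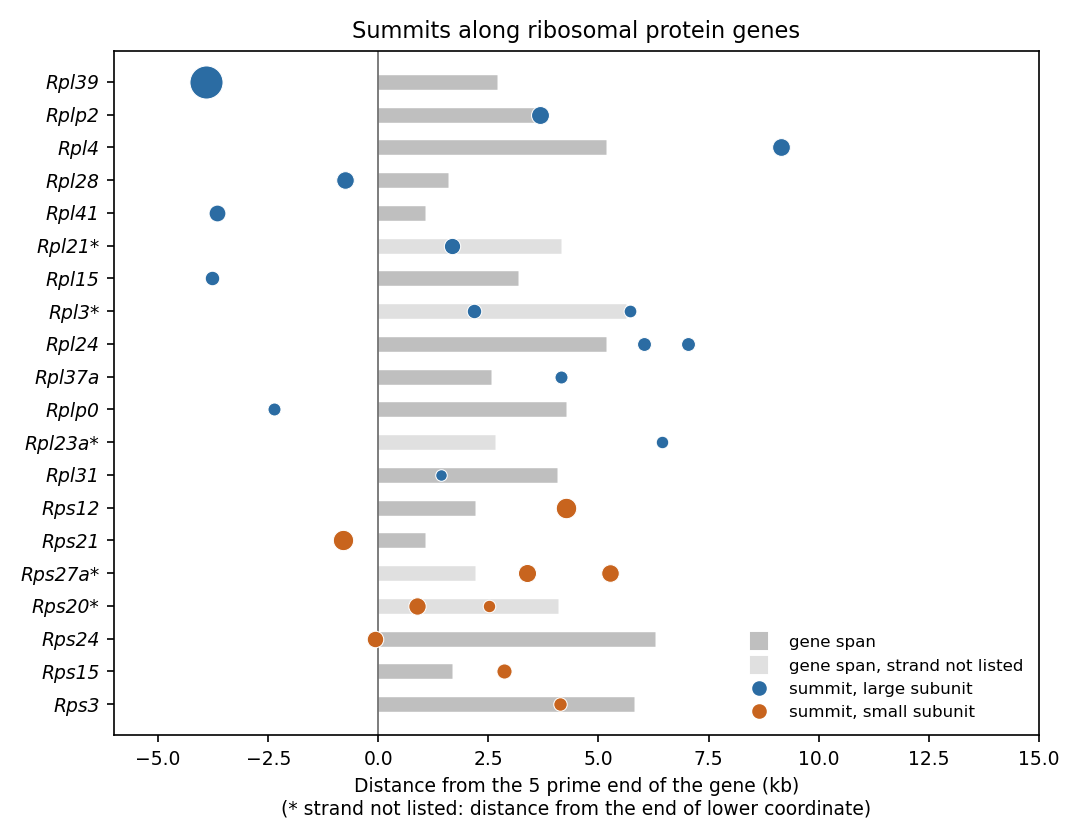
Summits (circles, area proportional to fold enrichment) along the 20 ribosomal protein genes with a peak, as distance in kb from the 5 prime end of the gene (x axis), grey bars being the gene spans. Genes with an asterisk have no listed strand and are drawn from the end of lower coordinate; summits lie inside, before and after the genes, and that of *Rps24* is at its start.

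Of the 71 genes without a peak, *Rpl30* was just outside the limit, with a summit 5181 bp away at 4.35-fold (24 fragments). *Rpl27* followed at 5864 bp (4.74-fold) and *Rps10* at 6129 bp (10.6-fold), then *Rpl36al* at 6349 bp (3.97-fold) and *Rpl34-ps1* at 6420 bp (10.6-fold), while the farthest gene inside the limit, *Rpl4* at 3982 bp, had 10.4-fold. The median distance to the nearest summit was 19182 bp for the 91 genes (middle 50% from 6239 to 49626 bp) and 9386 bp for all coding genes, a distance of 0 being given to genes with a summit inside. Among genes of up to 5 kb the median was 19182 bp for ribosomal protein genes and 25057 bp for all coding genes. Among genes of 5 to 20 kb it was 20358 bp against 16763 bp, so the direction differed between the classes of span. For 7 of the 91 genes the distance exceeded 100 kb. Among these were *Rps3a1* (214564 bp), *Rpl36a* (210909 bp), *Rpl14* (115382 bp) and *Rps19* (103556 bp).

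**Figure D5:**
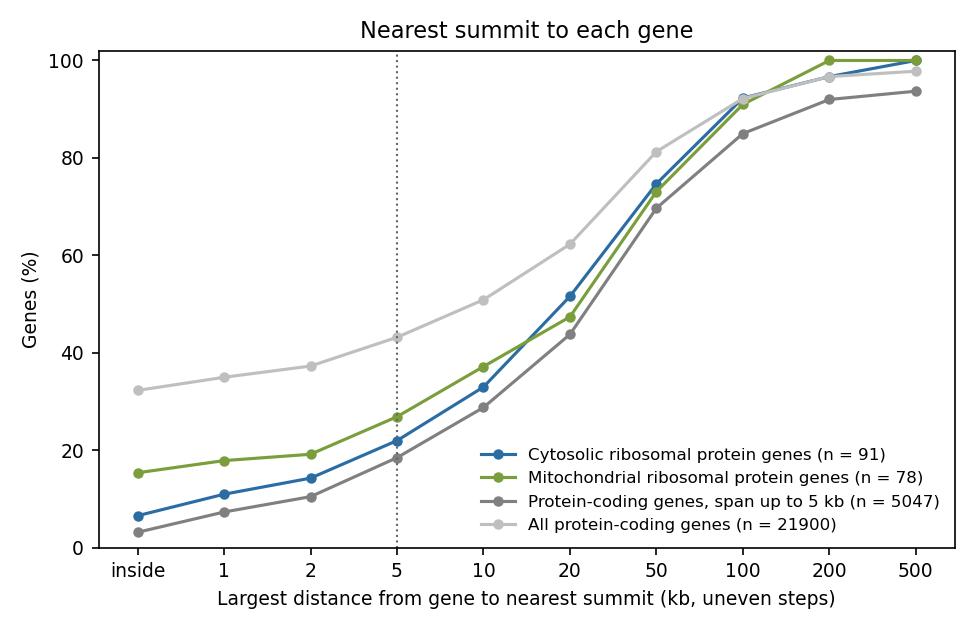
Cumulative share of genes (y axis, percent) whose nearest summit lies inside the gene or within the distance on the x axis (kb, uneven steps), for cytosolic and mitochondrial ribosomal protein genes, coding genes of up to 5 kb and all coding genes. At the dotted line, 5 kb, the curves stand at 22.0%, 26.9%, 18.5% and 43.2%.

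Related genes of translation were counted in the same way. *Fau* and *Rack1*, which encode ribosomal proteins under other symbols, had no summit within 5 kb. Mitochondrial ribosomal protein genes, whose products serve the separate ribosome of that organelle, had a peak at 21 of 78 (26.9%, 17.5 to 38.2%), led by *Mrpl3* at 49.3-fold, *Mrps15* at 47.7-fold, *Mrpl21* at 46.7-fold and *Mrpl54* at 33.1-fold. Their median span was 7690 bp, and among those of up to 5 kb 7 of 25 had a peak (28.0%, 12.1 to 49.4%), against 18.5% of coding genes. Among those of 5 to 20 kb it was 8 of 43 (18.6%, 8.39 to 33.4%) against 29.8%, and among longer ones 6 of 10 (60.0%, 26.2 to 87.8%) against 64.7%. The background share of each class lay inside the interval. The median best fold was 8.38, close to the 8.88 of the cytosolic genes.

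Of 14 translation factors and other genes with TOP messages, 6 had a peak (42.9%, 17.7 to 71.1%), among them *Eif4b*, which stimulates the helicase of cap-dependent initiation, at 33.0-fold and *Eef2*, the translocation factor, at 4.59-fold. Of 50 genes of ribosome assembly and rRNA synthesis, 23 had a peak (46.0%, 31.8 to 60.7%), with the highest values at *Brix1* (40.7-fold), *Mdn1* (35.0-fold), *Riok2* (24.9-fold) and *Mrto4* (17.6-fold), all factors of subunit maturation. The median spans of these lists, 11392 and 15850 bp, were nearer to the 17146 bp of all coding genes, and both intervals hold the background of 43.2%.

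Ribosomal protein pseudogenes, found by their symbols, had a summit inside or within 5 kb in 59 of 324 cases (18.2%, 14.2 to 22.9%), against 19.2% of all 10442 pseudogenes. The highest were *Rpl9-ps6* (41.9-fold, 3537 bp away), *Rpl7a-ps8* (36.3-fold, 945 bp) and *Rpl26-ps5* (26.3-fold, 990 bp). Processed copies share sequence with the exons of their parent genes, and the sources used here do not state the treatment of reads with several matches. Peaks inside the parents and the copies are therefore uncertain to that extent.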

How the data were processed

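Per the submitters' processing notes, BWA and MACS2 were used with the build mm10. Per the file headers, peaks were called once with MACS 2.1.0.20151222 on paired-end fragments of 1 antisera library against 1 control, with a q-value threshold of 0.01 and 1 fragment kept per position. The effective genome size was set to 1870000000. Redundant fragments were 20% and 42%. Settings of the read filters are not stated there. In the deposited table the pileup is the signal at the summit in fragments, per the file headers. The authors' caller also gave −log10 of the p-value and q-value, and the fold enrichment, a ratio of pileup plus 1 to local background plus 1.

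The background was recovered from pileup and fold, and the recomputed Poisson −log10 p was within 1% of the deposited one in 100% of the 50196 peaks where it was finite. Genes and promoters were from RefSeq tables (GRCm38.p6), with 49980 positioned genes. Strand was taken from the promoter table, which has no entry for 21 of the 91 genes. Summits were assigned with Python 3.11.15, pandas 2.3.3 and scipy 1.17.1, and the assignment was tested on simulated data. The members and lists were chosen with earlier results of these data known, and 5 retrogenes and paralogues were listed from the gene table. Named genes were every member with a summit within 5 kb, the nearest members outside it, the stalk and paralogues, and up to 4 genes of other lists by fold; *Eef2*, *Fau*, *Rack1* and the members named as far from any summit were chosen for naming with their values in view. Alternatives covered q-value, distance, peak overlap, peak strength, background, 2 chromosomes and paralogues.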

Additional observations from a re-analysis of the deposited data

How the results depend on the processing

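The share of ribosomal protein genes with a peak (22.0%) and that of all coding genes (43.2%) followed the distance allowed. They were 6.59% and 32.3% in the gene body alone, 11.0% and 35.0% within 1 kb, 33.0% and 50.9% within 10 kb, and 51.6% and 62.3% within 20 kb. Within 2 kb they were 14.3% and 37.3%. In the strongest 10% of peaks they were 1.10% and 8.90%, and the median best fold rested on *Rpl39* alone, at 36.1. Among coding genes of up to 5 kb, a class that holds 75 of the 91 genes, the gene body alone gave 3.19%. The share in that class was 7.35% within 1 kb, 10.5% within 2 kb, 28.8% within 10 kb and 43.8% within 20 kb. In the strongest 10% of peaks it was 2.24%. The best fold of 4 named genes moved at 10 kb, *Rps20* to 47.1, *Rpl28* to 34.1, *Rpl3* from 6.95 to 17.8 and *Rps27a* from 10.8 to 15.8, and at 20 kb that of *Rpl37a* also moved, from 5.59 to a value with an interval of 11.8 to 18.7. Counting only summits within 5 kb of a gene end was an alternative chosen after seeing the data. It left the ribosomal protein share at 22.0% and lowered the coding share to 27.5%. The ribosomal protein share could not change, because a summit inside a gene of up to 10 kb lies within 5 kb of an end. Of the 91 genes only *Rps15a* and *Rps23rg1* were longer, and neither had a peak. Stricter q-values, overlap of any base and removal of peaks over a high background left these shares and the median fold inside their 95% intervals. So did removal of chromosomes 4 and 15 and of paralogues. None of the removed paralogues had a peak, so their removal could not change the median fold and could only raise the ribosomal protein share. The interval of the median best fold, 6.38 to 10.4, came from the ranked values of the 20 genes. The q-value and background settings could not change the ribosomal protein values. The lowest −log10 q of their 24 peaks, 7.19, passed the stricter limits, and their highest background, 5.05, was under the limit of 10. No paired analysis was possible because each group holds 1 library. With 1 library pair no interval covers variation between libraries, and at this depth genes without a peak may hold enrichment below the caller's threshold.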
